A study of Homo sapiens with 12 samples.

Results

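Tumours grown from parental NCI-H1299 cells were set against every other sample of the same line: the mean of the 3 parental xenografts was compared with the average of the means of the other 3 groups. The 3 parental xenografts stood against 9 other arrays, 12 in all. Of 19775 genes 160 differed. NCI-H1299 is a long-established line of human non-small cell lung carcinoma. Each group had 3 samples, called biological replicates in the titles, and was defined by medium and condition. Parental culture was grown in serum-containing medium. Spheroid culture was grown in stem-cell medium, where cells that came loose from a monolayer were moved to ultra low attachment flasks. The parental xenografts and the spheroid xenografts were tumours formed by these same cultures. The sources used here give neither the host animal, the site of the graft nor the age of the tumours, and do not tie tumours to animals. The p-values therefore measure only the spread between these samples, which may be technical.

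A tumour grown in an animal meets an environment that a flask does not have, with limited oxygen, matrix and host cells around it. Matrix is built from fibrillar collagens, fibronectin and fibrillin, and is tuned by matricellular proteins such as SPARC, which bind collagen and cells without being part of the scaffold. Integrins anchor cells to it, cell-surface and secreted proteases remodel it, and transcription factors such as SNAI2 and PRRX1 are known for driving the mesenchymal state in which carcinoma cells make much of it. The comparison asks which genes took a level in parental-derived tumours that neither culture nor the spheroid-derived tumours had.

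The values are log2 expression on Affymetrix HG-U133 Plus 2.0 arrays, so a difference of 1 is 2-fold. The array medians lay between 5.85 and 6.03 and the interquartile ranges between 2.82 and 3.44, with 2.99, 2.99 and 3.29 on the parental xenografts. Parental culture replicate 2 had both the lowest median and the widest range, where replicates 1 and 3 of its group had ranges of 2.82 and 2.87. The number of arrays limits the precision, and the median SE of the difference was 0.165. In these bulk samples fewer cells of a type and less RNA per cell cannot be told apart.

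By limma, at an adjusted p (Benjamini-Hochberg, across the whole table) under 0.05, 134 genes were higher in parental xenografts (0.678% of genes) and 26 were lower (0.131%). Genes past this threshold are named as called. At 2-fold or more, 102 were higher and 15 lower. At an unadjusted limma p under 0.05 there were 2045 genes, 1259 higher and 786 lower. The median difference over all genes was -0.038. In 85 of the higher genes (0.43% of genes) and 17 of the lower (0.086%) the 3 values lay wholly outside the range of the other 9. Whether called or not, 239 genes (1.21%) had all 3 values above the other 9, and 154 (0.779%) had all 3 below.

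The split of 83.8% higher depended on scaling: quantile normalisation again gave 197 higher and 116 lower, cyclic loess 184 and 96. With the spread of each array as a covariate it was 400 and 271, and with the 9 other arrays as 1 group 22 and 2. The count of 160 also moved with single arrays. When a parental xenograft was left out it was 34 (replicate 1), 16 (replicate 2) or 116 (replicate 3). Of these 24, 15 and 76 were among the 160. Leaving out a spheroid culture gave 278 (replicate 1), 31 (replicate 2) or 66 (replicate 3), and leaving out a spheroid xenograft gave 81 (replicate 1) or 46 (replicate 2). Of the parental cultures, omitting replicate 2, the array with the widest interquartile range, gave 591 and omitting replicate 3 gave 94.

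**Figure D1:**
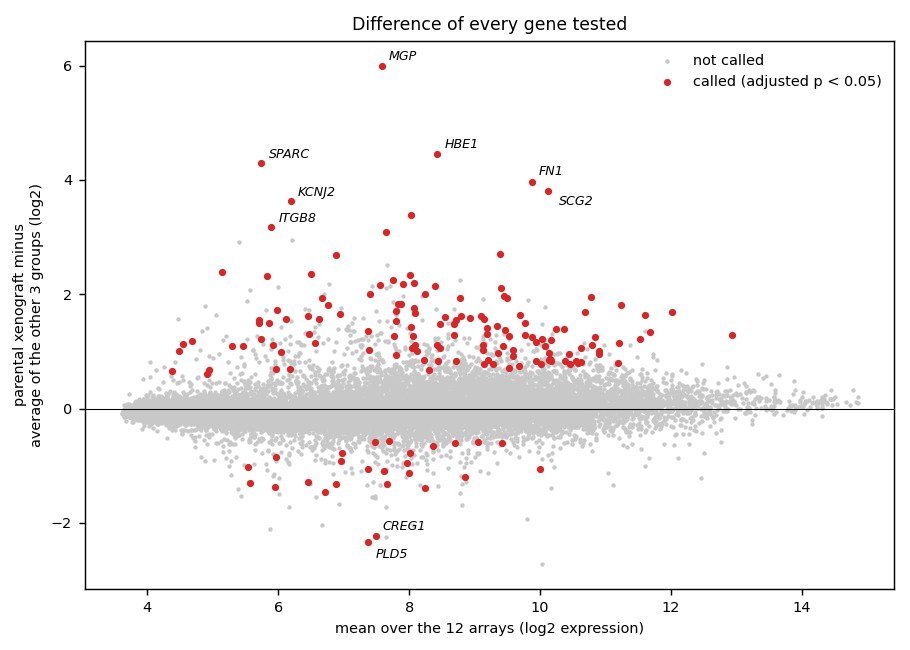
Each point is a gene, with its mean log2 expression over the 12 arrays on the horizontal axis and the parental xenograft mean minus the average of the other 3 group means (log2) on the vertical axis. The 160 called genes are red, and the 134 above 0 reach higher (MGP, 5.998) than the 26 below 0 reach down (PLD5, -2.34).

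The same contrast for each of the other groups, which uses the same 12 arrays, called 1160 genes in parental culture (594 higher, 566 lower), 39 in spheroid culture (10 and 29) and 116 in spheroid xenografts (71 and 45). Parental xenografts had the highest share of higher genes, 83.8%, against 51.2%, 25.6% and 61.2% in these groups. All 134 higher genes were also above each group mean taken singly, and 24 of the 26 lower genes below each. The closest group to the parental xenografts was the spheroid xenografts for 85 of the 134, parental culture for 34 and spheroid culture for 15. Their median difference was 1.41 from parental culture, 1.45 from spheroid culture and 0.93 from spheroid xenografts. The pairwise tests called 106, 83 and 31 of them, where 3.47%, 0.834% and 0.233% of all genes were called. The 134 were chosen by the average of these same differences, so shares above those of all genes follow from the choice.

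Genes that met the strictest rule were called in the average and against each of the other 3 groups. There were 14 of these, all higher (0.0708% of genes), and 0 lower (0%). At an unadjusted p under 0.05 in each of these 4 limma tests there were 234 higher and 69 lower. The 14 were MGP, SPARC, KCNJ2, ITGB8, PCDH7, PTGER4, PRRX1, ROBO1, FAP, S100A16, ITGA1, PCDH9, KHDRBS3 and SNAI2. PCDH9, KHDRBS3 and S100A16 were named after their values were seen. Between the xenografts, whose same-numbered arrays deviated together (correlations 0.182 to 0.482), 46 genes were called. In the 6 xenografts alone it was 161, and 491 with the replicate number as a block. The 14 were called in both, but they had been chosen partly by this comparison on the same arrays. Their calls here are therefore no separate support. The count of 14 moved with single arrays as well. Omitting parental culture replicate 2 gave 40 and replicate 3 gave 6. Omitting spheroid culture replicate 1 gave 25, and replicate 2 or 3 gave 5. Among parental xenografts replicate 1 gave 10, of which 6 were among the 14. Replicate 2 gave 5, and replicate 3 gave 25, of which 9 were among the 14. Among spheroid xenografts replicate 1 or 2 gave 4 and replicate 3 gave 8.

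**Figure D2:**
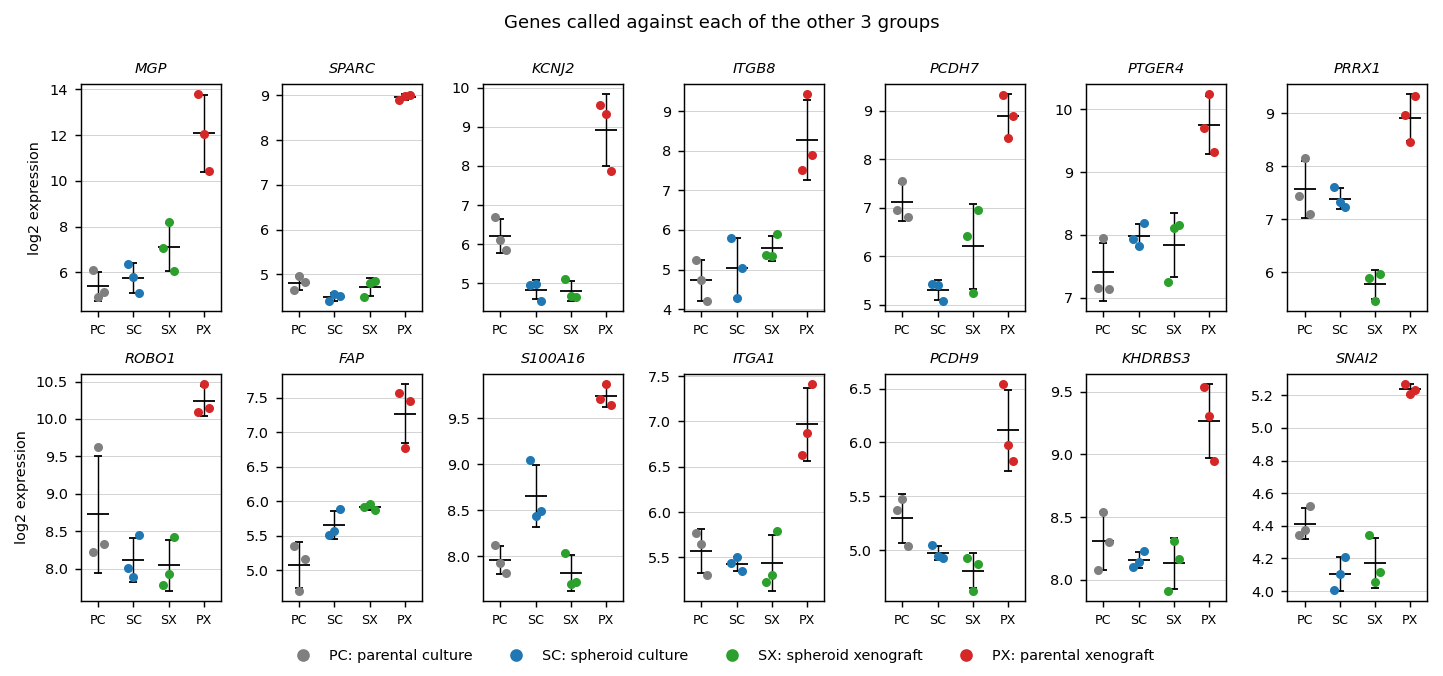
Log2 expression of the 14 genes called against each of the other 3 groups, 1 panel per gene; points are arrays, horizontal bars group means and error bars SDs (n = 3), and each panel has its own axis. The parental xenografts (PX, red) lie above all 9 other arrays in each panel, and SPARC reads 8.90, 8.98 and 9.01 against 4.401 to 4.96.

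SPARC, the collagen-binding matricellular glycoprotein, had the lowest adjusted p of these genes. Its level was 8.90, 8.98 and 9.01 on the 3 parental xenografts. On parental culture it was 4.64, 4.96 and 4.83, on spheroid culture 4.401, 4.56 and 4.51 and on spheroid xenografts 4.48, 4.80 and 4.85. The 9 other arrays lay within 4.401 to 4.96, far below the lowest parental xenograft. The difference was 4.29 (SE 0.12, limma adjusted p = 2.44e-09), or 19.6-fold. It was 4.15 against parental culture, 4.47 against spheroid culture and 4.25 against spheroid xenografts. A second SPARC probe set differed by 1.58 (adjusted p = 0.0179 over all probe sets in limma), also with no overlap.

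SPARC, ITGA1 and FAP were the 3 genes that were both called against each group and on only in parental xenografts, as defined further on. The RefSeq promoter table (GRCh38.p14) held SPARC and ITGA1. Their 250 bases before the annotated start are shown for these members, 5′ to 3′ on the strand of the gene, with the match of a motif in capitals. SPARC lies on the minus strand (chr5:151686916-151687165) and ITGA1 on the plus strand (chr5:52787666-52787915).
SPARC: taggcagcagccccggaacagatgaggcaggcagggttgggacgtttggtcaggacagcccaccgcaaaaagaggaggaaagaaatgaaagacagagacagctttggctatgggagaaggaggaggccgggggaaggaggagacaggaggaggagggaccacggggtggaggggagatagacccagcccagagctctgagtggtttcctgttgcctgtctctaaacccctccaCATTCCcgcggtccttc
ITGA1: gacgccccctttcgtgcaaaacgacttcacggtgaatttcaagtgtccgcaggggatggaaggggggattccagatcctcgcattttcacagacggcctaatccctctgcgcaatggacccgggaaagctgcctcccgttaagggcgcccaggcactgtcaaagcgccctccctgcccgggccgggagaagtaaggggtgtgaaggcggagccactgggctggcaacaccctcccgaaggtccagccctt
The motifs searched on both strands of 300-base windows were TGANTCA (the AP-1 core), GGAATG (the TEAD core) and ACGTG (the core of the hypoxia-inducible factors). In the 250 bases shown, SPARC held GGAATG on the opposite strand (CATTCC, 17 bases before the start), and ITGA1 held none of these motifs. Among the 102 higher genes with an entry 6.86% held TGANTCA, 13.7% GGAATG and 35.3% ACGTG. Of all 15384 genes with an entry, 8.1%, 15.7% and 28.8% did. Of the 25 lower genes with an entry, 4%, 28% and 8% held them.

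Matrix genes were among those with the largest differences. Of 35 matricellular and matrix glycoprotein genes measured, 7 were called higher (SPARC, POSTN, FN1, MGP, FBN2, EFEMP2 and EDIL3) and 0 lower, where 14 and 2 had an unadjusted p under 0.05. Such unadjusted counts, here and for the lists that follow, stand beside 1259 higher and 786 lower among all 19775 genes. The called counts of each list stand beside 134 higher (0.678%) and 26 lower (0.131%) among all genes. The lists and their members were chosen with earlier results of these data known, so these counts describe the lists and do not test them. The median difference of the list was 0.16, against -0.038 over all genes. MGP, which encodes a matrix protein that inhibits calcification, had the largest difference of all called genes. Its levels were 13.78, 12.03 and 10.43 on parental xenografts, 6.11, 4.91 and 5.13 on parental culture, 6.36, 5.81 and 5.08 on spheroid culture and 7.08, 8.19 and 6.07 on spheroid xenografts. The difference was 5.998 (SE 0.60, limma adjusted p = 0.00147), and the tumours of spheroid cells came second with a mean of 7.11 ± 1.06 (SD, n = 3). The second MGP probe set differed by 0.67 (adjusted p = 0.622 when it stood for the gene) and was not called. It was dim, with a mean of 4.57 on parental xenografts and 3.90 on the 9 other arrays.

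FN1, which encodes the matrix glycoprotein fibronectin, read 13.70, 12.75 and 12.09 on parental xenografts and 7.49 to 11.03 on the other arrays. Spheroid culture replicate 1 was the nearest, and no value overlapped. The difference was 3.96 (SE 0.63, limma adjusted p = 0.0198). FN1 was called against both cultures but not against spheroid xenografts (3.84, adjusted p = 0.0782). Its probe set has the suffix _x_at, which like _s_at marks probes that can match more than 1 transcript. Another probe set, without these suffixes, differed by 0.21 (adjusted p = 0.79). FBN2, a fibrillin of elastic microfibrils, read 10.64, 9.63 and 9.59 against 4.69 to 8.79, a difference of 3.09 (SE 0.41, limma adjusted p = 0.0102). Parental culture was the closest group to it, at 7.75, 8.79 and 7.85, and was not called apart from it (1.83, adjusted p = 0.0744). EDIL3, a secreted integrin ligand, differed by 3.39 (SE 0.60, limma adjusted p = 0.0265). Its values on spheroid xenografts, 10.33, 8.05 and 10.34, overlapped those on parental xenografts, 10.56, 11.44 and 9.69.

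Of 19 collagen genes 3 were called higher and 0 lower (8 and 0 at an unadjusted p under 0.05; median 0.13). COL6A2, a chain of the microfibrillar type, read 10.10, 8.09 and 9.04 (1.71, SE 0.35) and overlapped spheroid xenografts (8.19, 7.70 and 8.43). COL3A1, a fibrillar chain, read 7.71, 7.88 and 6.28 on parental xenografts and 6.41, 6.14 and 7.27 on spheroid xenografts, and these overlapped. Its difference was 1.56 (SE 0.31, limma adjusted p = 0.0391), but a probe set without the shared-probe suffixes gave -0.033 (adjusted p = 0.97). COL5A2, which joins fibrils of other collagens, read 5.14, 5.60 and 5.62 against 4.49 to 5.001, low levels without overlap (0.68, SE 0.12). Among 16 genes of collagen crosslinking and processing 2 were called higher and 0 lower (6 and 0 unadjusted; median 0.47): the lysyl hydroxylases PLOD2 (1.31, SE 0.26) and PLOD1 (0.74, SE 0.15). PLOD1 overlapped spheroid xenografts (0.34, adjusted p = 0.826). COL6A3, another microfibrillar chain, read 9.59, 6.003 and 5.81 on parental xenografts, high on replicate 1 alone, and was not called (adjusted p = 0.158).

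FAP and ADAMTS1, which act outside the cell on matrix and peptides, were both on only in parental xenografts. FAP, a serine protease of the plasma membrane that is best known from activated fibroblasts, read 7.58, 6.78 and 7.45 on parental xenografts. On parental culture it was 5.35, 4.70 and 5.16, on spheroid culture 5.51, 5.57 and 5.89 and on spheroid xenografts 5.92, 5.96 and 5.87. No array of another group reached the lowest parental xenograft. The difference was 1.72 (SE 0.18, limma adjusted p = 0.00192), and 1.35 against spheroid xenografts alone (adjusted p = 0.0365). ADAMTS1, a secreted metalloprotease that cleaves proteoglycans, read 6.74, 7.54 and 6.34 against 4.92 to 5.79, a difference of 1.55 (SE 0.23, limma adjusted p = 0.0143). It was the single called gene among 26 matrix proteases and inhibitors (11 higher and 0 lower at an unadjusted p under 0.05; median 0.30). PRSS23, a secreted serine protease, rose by 1.94 (SE 0.27, limma adjusted p = 0.0111). Low levels on spheroid culture (8.47, 7.01 and 7.15) set most of that average. The difference was 1.14 against parental culture (limma adjusted p = 0.0917) and 1.28 against spheroid xenografts (limma adjusted p = 0.194).

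Of 23 integrin and laminin genes 3 were called higher and 0 lower (11 and 2 unadjusted; median 0.37). ITGA1 encodes the alpha subunit of a collagen-binding integrin. It read 6.63, 6.87 and 7.41 on parental xenografts, 5.77, 5.64 and 5.30 on parental culture, 5.44, 5.50 and 5.35 on spheroid culture and 5.23, 5.30 and 5.79 on spheroid xenografts. The groups did not overlap, and the difference was 1.49 (SE 0.18, limma adjusted p = 0.00455), nearly the same against each (1.40, 1.54 and 1.53). ITGB8, whose integrin binds latent TGF-beta, read 7.51, 9.43 and 7.89 against 4.20 to 5.91 (3.18, SE 0.39, limma adjusted p = 0.00536). All 5 of its probe sets were higher, but 1 was called. LAMC1, a laminin chain of basement membranes, rose by 0.87 (SE 0.17, limma adjusted p = 0.0354) with values that overlapped spheroid xenografts.

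**Figure D3:**
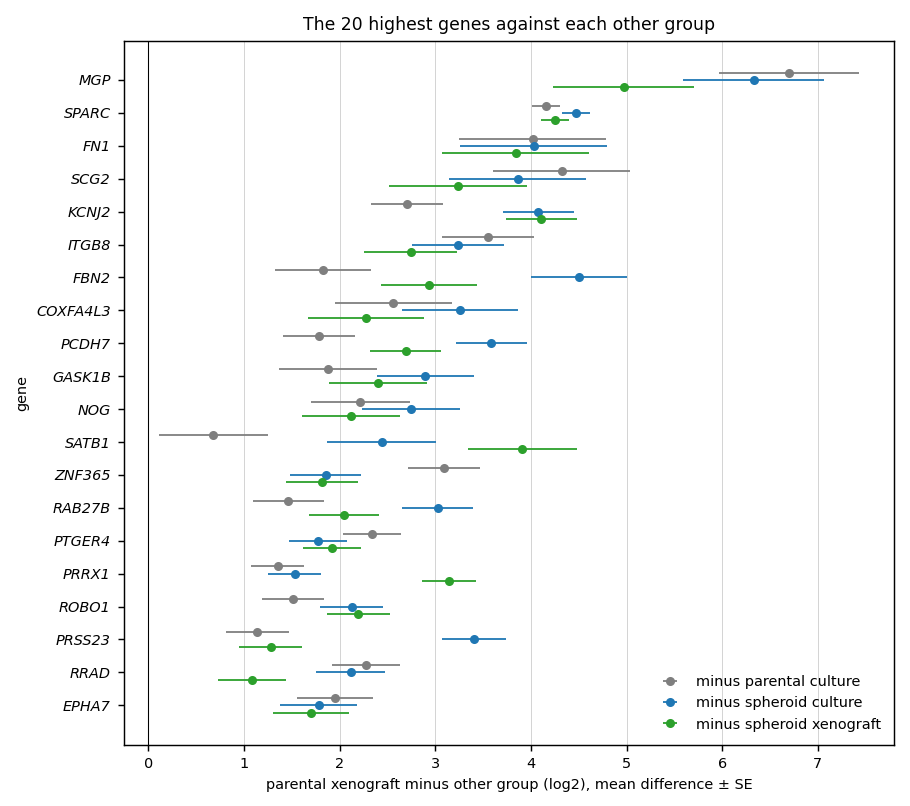
Difference between the parental xenograft mean and each other group mean (log2, points, with SE as bars) for the 20 highest genes of the named rule. Every point lies to the right of 0, which follows from choosing called genes with no overlap. SPARC has similar values against the 3 groups, and SATB1 is 0.68 above parental culture but 3.91 above spheroid xenografts.

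PRRX1 and SNAI2, transcription factors of the mesenchymal state, were both among the 14. Of 15 mesenchymal transition genes 3 were called higher and 0 lower (6 and 1 unadjusted; median 0.42). PRRX1, a homeobox factor of mesenchyme, read 8.97, 8.45 and 9.32 on parental xenografts. On parental culture it was 7.44, 8.15 and 7.09, on spheroid culture 7.61, 7.33 and 7.22 and on spheroid xenografts 5.88, 5.46 and 5.97. Parental culture replicate 2 came closest and spheroid xenografts were lowest. The difference was 2.01 (SE 0.23, limma adjusted p = 0.00333), and 2 of its 3 probe sets were called. With the 9 other arrays as 1 group it was not called (adjusted p = 0.187).

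SNAI2, a zinc-finger repressor that lowers E-cadherin, was dim throughout, at 5.27, 5.21 and 5.23 on parental xenografts and 4.005 to 4.52 elsewhere. The 3 values were nearly the same and above all others, a difference of 1.004 (SE 0.11, limma adjusted p = 0.00192). S100A4, a calcium-binding protein of motile cells, read 9.20, 10.80 and 9.18 on parental and 9.56, 8.59 and 9.36 on spheroid xenografts, against 7.20, 6.35 and 6.38 and 6.56, 7.04 and 6.72 in the cultures. It was called in the average (2.20, SE 0.34, limma adjusted p = 0.0182) but not between the xenografts (0.56, adjusted p = 1). Of 19 epithelial genes 0 were called (0 higher and 4 lower at an unadjusted p under 0.05 in limma; median -0.09).

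Protocadherins and guidance receptors, which mediate contact between cells, were also among the 14. PCDH7 read 9.33, 8.45 and 8.90 on parental xenografts. On parental culture it was 6.96, 7.56 and 6.82, on spheroid culture 5.43, 5.41 and 5.08 and on spheroid xenografts 6.42, 5.25 and 6.95. Parental culture was the closest, with no overlap, and the difference was 2.68 (SE 0.31, limma adjusted p = 0.00333). All 5 of its probe sets were higher and 3 were called, but with the 9 other arrays as 1 group it was not (adjusted p = 0.0673). PCDH9 read 6.54, 5.97 and 5.82 against 4.62 to 5.47 (1.09, SE 0.16, limma adjusted p = 0.0143). Of its 4 probe sets 1 was called and 1 was lower, and the 4 averaged gave no call (0.335, limma adjusted p = 0.134). A PCDH9 probe set without the shared-probe suffixes differed by 0.289 (limma adjusted p = 0.385). It was dim, with a mean of 4.30 on parental xenografts and 4.01 on the 9 other arrays. ROBO1, the receptor of the Slit guidance cues, read 10.10, 10.47 and 10.14 against 7.78 to 9.63 (1.94, SE 0.27, limma adjusted p = 0.0111). Parental culture replicate 2, at 9.63, lay well above the other 8 arrays. EPHA7, an ephrin receptor, rose by 1.81 (SE 0.33, limma adjusted p = 0.0273), as the single called gene of 16 ephrins and Eph receptors (2 higher and 0 lower unadjusted). It was not called against spheroid xenografts alone (1.70, limma adjusted p = 0.139).

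Channels, receptors and secreted regulators followed. KCNJ2, an inwardly rectifying potassium channel, read 9.55, 9.33 and 7.88 on parental xenografts, 6.69, 6.10 and 5.84 on parental culture, 4.97, 4.99 and 4.56 on spheroid culture and 5.11, 4.67 and 4.64 on spheroid xenografts. Parental culture was intermediate and the other 6 arrays low. The difference was 3.63 (SE 0.30, limma adjusted p = 0.000354), or 12.4-fold. It was the single called gene of 20 potassium channels (2 higher and 0 lower unadjusted; median -0.09).

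PTGER4, a prostaglandin E receptor, read 9.70, 10.24 and 9.32 against 7.14 to 8.19 (2.01, SE 0.25, limma adjusted p = 0.00536), and the other 3 groups lay close together. S100A16, a calcium-binding protein, read 9.70, 9.87 and 9.64, with 9.05, 8.43 and 8.49 on spheroid culture, the nearest group, and 7.69 to 8.12 on the other 6 arrays (1.60, SE 0.15, limma adjusted p = 0.000839). KHDRBS3, an RNA-binding regulator of splicing, read 9.54, 9.31 and 8.95 against 7.91 to 8.54 (1.07, SE 0.15, limma adjusted p = 0.0111). The KHDRBS3 probe set without the shared-probe suffixes differed by 0.143 (adjusted p = 0.869). It was dim, with a mean of 4.38 on parental xenografts and 4.24 on the 9 other arrays.

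In TGF-beta and BMP signalling 4 of 27 genes were called higher and 0 lower (8 and 0 unadjusted; median 0.22): NOG, PMEPA1, BMPR2 and TGFBR2. NOG, a secreted BMP antagonist, read 8.70, 9.08 and 7.01 against 5.12 to 6.73 without overlap (2.36, SE 0.42, limma adjusted p = 0.0265). It was not called against spheroid xenografts alone (2.12, limma adjusted p = 0.153). PMEPA1, a target and inhibitor of TGF-beta signalling, reached 13.04, 12.21 and 11.50 (1.95, SE 0.34, limma adjusted p = 0.026), but spheroid xenografts overlapped it at 10.96, 11.22 and 12.17. BMPR2, a receptor of BMPs (1.64, SE 0.31), and TGFBR2, a receptor of TGF-beta, also overlapped spheroid xenografts. Of 15 angiogenic factors 2 were called, VEGFC (1.06, SE 0.21) and SEMA3C (1.02, SE 0.20; 5 higher and 0 lower unadjusted; median 0.21). Neither was called against spheroid xenografts alone: VEGFC overlapped them and differed by 0.28 (adjusted p = 1), and SEMA3C differed by 0.32 (adjusted p = 1) without overlap.

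SCG2, a granin of dense-core vesicles, read 13.33, 13.06 and 12.55 against 7.28 to 10.94 (3.81, SE 0.59, limma adjusted p = 0.0182). It was the single called gene of 20 neuronal and neuroendocrine genes (4 higher and 0 lower unadjusted; median 0.14). RAB27B, a GTPase of secretory vesicles, rose by 2.18 (SE 0.30, limma adjusted p = 0.0111), ZNF365 by 2.25 (SE 0.31, limma adjusted p = 0.0107), RRAD, a small GTPase related to Ras, by 1.82 (SE 0.29, limma adjusted p = 0.0198) and COXFA4L3 by 2.70 (SE 0.50, limma adjusted p = 0.0302). These were named by a rule that asked for no overlap with any other array. None of them was called against spheroid xenografts alone. The limma adjusted p was 0.0527 for RAB27B, 0.0871 for ZNF365, 0.353 for RRAD and 0.211 for COXFA4L3. SCG2 was not called against that group either (limma adjusted p = 0.111). SATB1, which organises chromatin loops, rose by 2.34 (SE 0.47, limma adjusted p = 0.0411), but parental culture (8.87, 9.34 and 9.08) lay just below parental xenografts (9.43, 10.004 and 9.89), and its probe set without the shared-probe suffixes gave 0.57 (adjusted p = 0.623). HBE1, the embryonic globin chain, had a larger difference (4.46, SE 0.31, limma adjusted p = 7.07e-05) than most, at 12.66, 11.60 and 11.06, but spheroid xenografts read 11.61, 11.22 and 11.80, and these overlapped. EDIL3, HBE1 and PLD5 were named after their values were seen.

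A gene was taken as on only in parental xenografts if it was called higher by 1 log2 unit or more, was above the array's median on all 3 parental xenografts and below it on all 9 others. The table holds no detection calls, so the median is a level and not a limit of detection. By this rule 7 genes were on only (0.0354% of genes): SPARC, GASK1B, FAP, ADAMTS1, ITGA1, GAPLINC and FLRT3. The same rule gave 18 genes in parental culture and 0 in spheroid culture and in spheroid xenografts. GASK1B, a Golgi-associated protein, read 6.77, 7.98 and 6.06 against 3.94 to 5.73 (2.39, SE 0.42, limma adjusted p = 0.026), and parental xenograft replicate 3 and parental culture replicate 2 nearly met. GAPLINC, a long non-coding RNA, read 7.23, 6.61 and 6.09 against 5.06 to 5.87 (1.21, SE 0.23, limma adjusted p = 0.0364), and FLRT3, a leucine-rich repeat adhesion protein, 6.09, 6.36 and 6.38 against 4.77 to 5.84 (1.09, SE 0.18, limma adjusted p = 0.0238). Against spheroid xenografts alone GASK1B (limma adjusted p = 0.0978) and GAPLINC (0.188) were not called. FLRT3 was not called against spheroid culture (limma adjusted p = 0.102).

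Just outside the rule, with 8 of the 9 other arrays below the median, lay ITGB8, HHIP, a Hedgehog inhibitor (6.28 to 8.77 against 4.55 to 6.84), and DOK6 (6.26 to 7.34 against 4.71 to 6.89). Without parental xenograft replicate 1 there were 7 such genes as well, but only 3 of these were among the 7 named. The count of 7 was 3 without replicate 2 of that group and 12 without its replicate 3, with 6 of the 12 among the 7 named. It was 4 when spheroid culture replicate 2 or 3, or spheroid xenograft replicate 1 or 2, was left out, and 0 where off meant below the lower quartile.

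A single gene was off only in parental xenografts (0.00506% of genes): PRSS16, a serine protease of the thymic cortex. The same rule gave 4 genes in parental culture, 0 in spheroid culture and 1 in spheroid xenografts. PRSS16 read 5.78, 4.85 and 5.84 on parental xenografts against 6.08 to 7.32 elsewhere, without overlap (-1.29, SE 0.25, limma adjusted p = 0.0354). On 2 of the 3 arrays the level lay just under the array median, and the rule was not met when spheroid culture replicate 2 or 3, parental xenograft replicate 1, 2 or 3, or spheroid xenograft replicate 2 or 3 was left out. Without parental xenograft replicate 3 another gene met it in its place.

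Among the lower genes, CREG1, a glycoprotein of the endosome and lysosome, had the largest difference without overlap. It read 6.06, 5.28 and 6.14 on parental xenografts, 7.38, 7.49 and 6.41 on parental culture, 7.97, 9.50 and 10.05 on spheroid culture and 7.48, 7.94 and 8.16 on spheroid xenografts. The difference was -2.22 (SE 0.38, limma adjusted p = 0.0251), set most by spheroid culture (-3.35), and was -1.27 against parental culture (adjusted p = 0.205). PLD5 had a lower value (-2.34) but overlapped parental culture, at 6.75, 5.49 and 4.98 against 5.63, 5.53 and 5.71. CTSH, a lysosomal cysteine protease, read 6.35, 6.61 and 6.80 against 7.05 to 8.30 (-1.05, SE 0.17, limma adjusted p = 0.0213), and AP1M2, an epithelial clathrin adaptor subunit, 6.66, 7.71 and 7.22 against 7.73 to 9.02 (-1.39, SE 0.27, limma adjusted p = 0.0354).

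CHAC1, which degrades glutathione, read 6.84, 6.47 and 6.72 on parental xenografts, 8.81, 9.68 and 8.60 on parental culture, 7.78, 7.45 and 7.26 on spheroid culture and 7.56, 7.51 and 7.34 on spheroid xenografts. Parental culture was highest, and the difference of -1.32 (SE 0.20, limma adjusted p = 0.0182) was -2.35 against it but -0.79 against spheroid xenografts (adjusted p = 0.317). JDP2, a repressor of AP-1, was also highest in parental culture, at 5.88, 6.01 and 5.80 against 6.40 to 9.05 (-1.32, SE 0.25, limma adjusted p = 0.0322), as was STC2, a stanniocalcin (-0.92, SE 0.14). Of 22 ATF4 targets 2 were called lower, CHAC1 and STC2, and 0 higher (12 lower and 1 higher unadjusted), and the median of -0.65 was the lowest of the lists. GSTM3, a glutathione transferase, read 7.53, 7.76 and 8.61 against 8.79 to 9.63 (-1.19, SE 0.22, limma adjusted p = 0.0294), but a probe set without the shared-probe suffixes gave -0.25 (adjusted p = 0.76). It was the single called gene of 25 antioxidant and glutathione genes (1 higher and 3 lower unadjusted; median -0.02). PARP14, an ADP-ribosyl transferase, was the single called gene of 26 interferon response genes (-0.56, SE 0.12, limma adjusted p = 0.0486; 0 higher and 6 lower unadjusted; median -0.15). The remaining lower genes named were PNPLA4, of the patatin-like lipase family (-1.08, SE 0.22), KIF26A, of the kinesin family (-0.85, SE 0.15), DIPK1B (-0.77, SE 0.13), COQ6, an enzyme of ubiquinone synthesis (-0.65, SE 0.11), the long non-coding RNA THORLNC (-0.61, SE 0.12) and RIOX1, a ribosomal oxygenase (-0.60, SE 0.12). They were named by a rule that asked for no overlap with any other array.

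**Figure D4:**
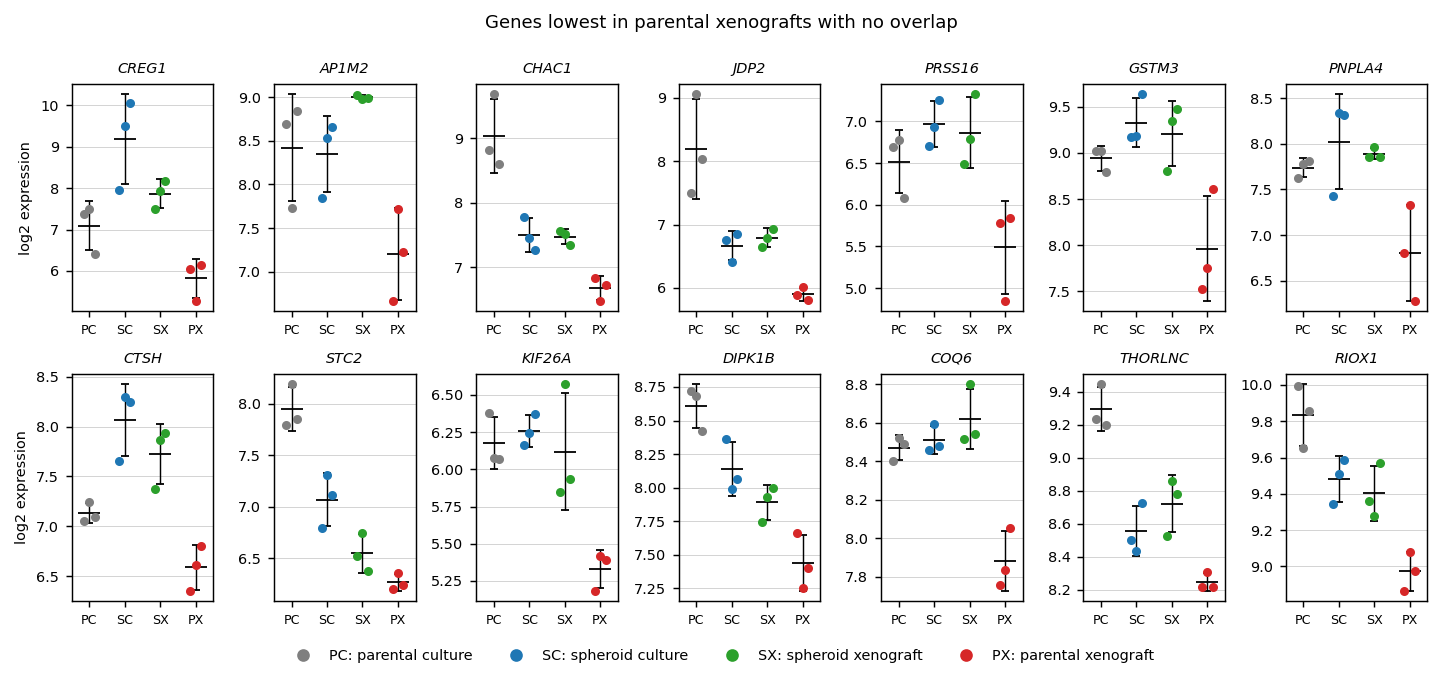
Log2 expression of the 14 called genes with the lowest differences and no overlap, 1 panel per gene; points are arrays, horizontal bars group means and error bars SDs (n = 3), on separate axes. By this choice of genes the parental xenografts (PX, red) lie below all 9 other arrays. In CHAC1, JDP2 and STC2 parental culture (PC) is the highest group.

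The hypoxia list had the highest median of the 41 lists, 0.81 over 24 measured genes, of which 21 were above 0. Of these 3 were called higher and 1 lower (16 and 1 unadjusted): PDK1, a kinase that holds back the oxidation of pyruvate (1.62, SE 0.31), PFKFB3, a glycolytic regulator (1.53, SE 0.25), ANKRD37 (1.83, SE 0.37) and STC2 downward. ANKRD37 overlapped spheroid xenografts, at 9.17, 9.30 and 9.13 against 8.16, 8.86 and 9.32, and so did PDK1 (1.06, adjusted p = 0.436). Of 17 glycolysis genes 1 was called, lower: the aldolase ALDOC (-1.12, SE 0.23), which lay at 7.03, 7.47 and 6.97 beside 7.41, 6.57 and 7.44 on parental culture (6 higher and 1 lower unadjusted; median 0.28). Of 13 mineralisation genes 3 were called higher and 1 lower: MGP, the stanniocalcin STC1 (2.11, SE 0.39), the phosphoprotein SPP1 (1.28, SE 0.23) and, lower, STC2. STC1 differed most from spheroid xenografts (3.43) and overlapped spheroid culture (1.18, adjusted p = 0.356), and SPP1 overlapped spheroid xenografts (0.57, adjusted p = 0.762).

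Among 26 chromatin and developmental regulators 4 were called higher, SATB1, EYA4 (1.93, SE 0.33), GATA3 (1.26, SE 0.24) and TFAP2A. EYA4 overlapped parental culture, at 7.82, 8.43 and 8.11 against 6.68, 7.86 and 6.95, and was not called against it (0.96, adjusted p = 0.285). GATA3 read 10.66, 10.38 and 10.38 on parental xenografts and 9.64, 10.41 and 10.82 on spheroid xenografts, which overlapped (0.18, adjusted p = 1). Of 17 Notch genes JAG1, a ligand, was called (1.81, SE 0.32), of 35 FGF and receptor tyrosine kinase ligands PDGFC (1.11, SE 0.19), of 15 Hippo targets PTPN14 (1.15, SE 0.17) and of 17 cancer-testis genes GAGE1 (1.65, SE 0.33). JAG1, PDGFC and PTPN14 overlapped spheroid xenografts and were not called against them, with differences of 0.69 (adjusted p = 0.863), 0.37 (adjusted p = 0.95) and 0.32 (adjusted p = 0.964). GAGE1 overlapped parental culture (0.43, adjusted p = 0.818). The Wnt, antigen presentation, chemokine, cholesterol, S phase, G2 and M phase, HOX, lung lineage and stem cell lists had 0 called genes by limma, with 0 to 3 higher and 0 to 6 lower per list at an unadjusted p under 0.05. The G2 and M phase list had 6 of its 22 genes lower by that measure (median -0.18), and the 18 stem cell markers had a median of -0.006 that turned to 0.014 after median centring and 0.0023 after cyclic loess. CD44, an adhesion receptor used as a stem cell marker, differed by 0.97 (SE 0.27, limma adjusted p = 0.139), PROM1 by -0.06, ALDH1A1 by -0.003, SOX2 by 0.06 and NANOG by -0.01, and none was called. CD44 was as high on parental culture as on parental xenografts.

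**Figure D5:**
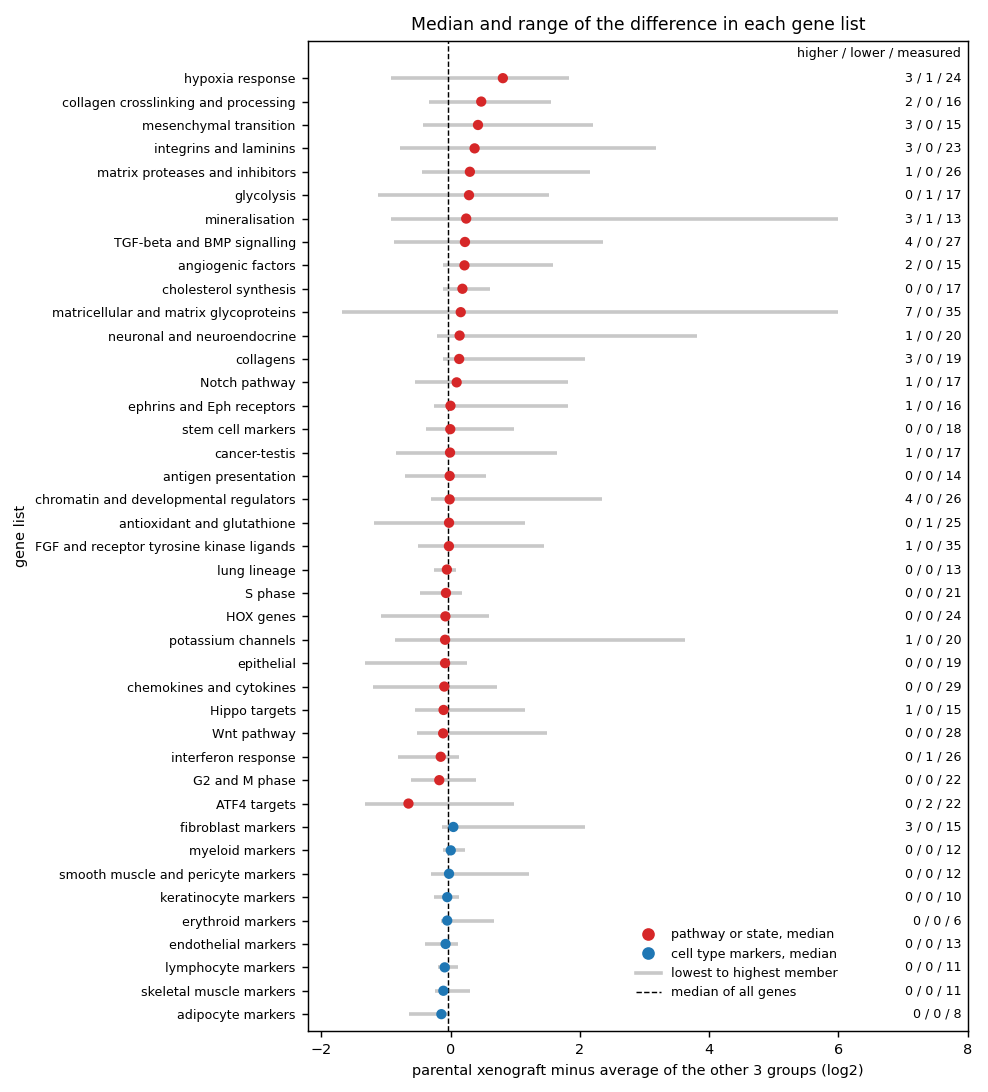
Median difference of each gene list (points, log2) with its lowest and highest member (grey bars) and the counts called higher, called lower and measured at the right; the dashed line is the median of all genes, -0.038. The hypoxia list lies furthest right at 0.81 and the ATF4 list furthest left at -0.65, and the marker lists (blue) lie near the line.

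Markers of cells that a tumour could take from its host were set beside these groups. The probe sets are made for human transcripts, and how far they read host RNA was not tested. Low or unchanged marker levels therefore do not measure how much host tissue a tumour held. Of 15 fibroblast markers 3 were called higher (COL3A1, FAP and POSTN) and 0 lower (5 and 0 unadjusted; median 0.04). POSTN, a matricellular protein, overlapped spheroid xenografts (0.38, adjusted p = 0.6). Their mean level was 5.98 to 6.58 on parental xenografts, 5.85 to 5.94 on spheroid xenografts, 5.51 to 5.82 on parental culture and 5.67 to 5.94 on spheroid culture. LUM was below the lower quartile on all 12 arrays. The part of these cells in the matrix, FAP and collagen results was not tested. The other 8 marker lists, of smooth muscle and pericytes, endothelium, myeloid cells, lymphocytes, red cells, fat, muscle and keratinocytes, had 0 called genes by limma, with at most 1 in each direction at an unadjusted p under 0.05 per list. The endothelial markers had a mean level of 5.76 to 6.09 on parental and 5.88 to 6.10 on spheroid xenografts, and KDR and TIE1 were below the lower quartile on all 12 arrays. The myeloid markers ran from 5.40 to 5.79 and from 5.46 to 5.76.

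Of the 68 named genes that were called, MGP, SPARC, KCNJ2, ITGB8, PCDH7, PRRX1, FAP, ITGA1, SNAI2 and S100A16 were called whichever array was left out (limma adjusted p at most 0.0374). ZNF365, PTGER4, ROBO1 and S100A4 lost their call when parental xenograft replicate 2 was left out (adjusted p up to 0.0807). SCG2, FBN2, RAB27B, PRSS23, STC2, ADAMTS1, PTPN14, KHDRBS3 and PCDH9 lost it when replicate 1 or replicate 2 of that group was left out (up to 0.103). FN1 and CHAC1 lost it with either of these, or with spheroid culture replicate 2, left out (up to 0.112). The other 43 were called in 1 to 8 of the 12 fits that each left out an array (adjusted p up to 0.25). By array, leaving out parental xenograft replicate 1, 2 or 3 ended 52, 57 and 29 of the 68 calls. For spheroid culture replicates 1, 2 and 3 these were 1, 45 and 34, for spheroid xenografts 28, 42 and 16, and for parental culture 11, 0 and 30.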

How the data were processed

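Total RNA was labelled with biotin and measured on 12 arrays. The deposited values are log2 expression per probe set, made with RMA and affy, per the submitters' processing notes. The sources used here give no versions and do not say whether arrays were normalised jointly. Of 54675 probe sets 62 were controls, 41091 had 1 symbol, 1801 several and 11721 none. Symbols of 41037 were updated by gene number through RefSeq (GRCh38.p14). The probe set with the highest mean stood for each of 19775 genes, with no filter.

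With R 4.3.3 and limma 3.58.1 a model with 1 mean per group (8 residual degrees of freedom) was moderated by eBayes. Tests were two-sided, with Benjamini-Hochberg adjustment over all genes. The script was tested on simulated data.

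The 20 highest and 20 lowest called genes without overlap were named, with all on or off genes, the 3 largest called members of each of 41 lists, stem cell markers and 2 members of each cell type marker list. Genes with symbols such as LOC or orf were left out. The members and lists were chosen with earlier results of these data known, so lists are described and not tested. Alternatives covered scaling, probe set choice, dim genes, a replicate block, array spread and single arrays.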

Additional observations from a re-analysis of the deposited data

Results flagged for a closer look

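For 6 of the genes named above the change from culture to xenograft differed between parental and spheroid cells by limma's interaction test, where 27 of 19775 genes (0.137%) were called. Most genes were named by a contrast that uses the same parental xenograft values. Their share of these calls is therefore no separate support. SPARC rose by 4.15 in parental cells and differed by 0.22 in spheroid cells, an interaction of 3.93 (SE 0.20, limma adjusted p = 4.37e-06). PRRX1, the mesenchymal homeobox factor, differed by 1.35 and -1.62, an interaction of 2.97 (limma adjusted p = 0.019), with opposite signs in the 2 kinds of cell. S100A16 also had opposite signs, at 1.78 and -0.84 (interaction 2.62, limma adjusted p = 0.00296). FAP differed by 2.20 and 0.26 (interaction 1.94, limma adjusted p = 0.0416). CHAC1 differed by -2.35 and -0.02 (interaction -2.33, limma adjusted p = 0.034), and THORLNC, a long non-coding RNA, by -1.04 and 0.17 (interaction -1.21, limma adjusted p = 0.0455). Groups of 3 are too small for the check of single outlying arrays.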

How the results depend on the processing

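The main counts were 160 called, 14 called against each group, 7 on only and 1 off only. The called count was 313 after quantile normalisation again, 106 after median centring, 280 after cyclic loess, 95 without the shared-probe suffixes _s_at and _x_at, 24 with the 9 others as 1 group, 671 with array spread as a covariate and 358 with parental culture replicate 3 as the only array of its group, which is assumed to vary like the rest. For genes called against each group it was 7 after median centring, 9 with only genes above the median level or without those probe sets, 44 with the covariate and 23 with that lone array. On only gave 0 with genes above the median level, since its genes are dim on average, 0 where off meant below the lower quartile, 4 with the 9 as 1 group and 11 with the lone array. Off only gave 0 under each of median centring, cyclic loess, the level filter, the 9 as 1 group, the lone array, the quartile rule and the replicate block. The labels do not say what a shared replicate number means. Deviations of same-numbered arrays from their group means correlated above 0.1 in 8 of 9 pairs without a parental culture (0.0803 to 0.482) but in 3 of 9 pairs with one (-0.565 to 0.333), so the numbers do not pair all 4 groups. All 6 arrays of the spheroid groups, and 4 of the 6 xenografts, correlated best with their own number in the other group. The replicate block over the 12 arrays called 116 genes, 99 of them among the 160, and 13 against each group. Of 68 called named genes 22 were not called with it (adjusted p = 0.0511 to 0.0845): SATB1, AP1M2, PRSS16, PNPLA4, KIF26A, THORLNC, RIOX1, PARP14, COL6A2, COL3A1, COL5A2, PLOD2, PLOD1, LAMC1, BMPR2, VEGFC, SEMA3C, PDK1, ALDOC, GATA3, GAGE1 and POSTN. Between parental and spheroid xenografts 46 genes were called, 43 with that block, 161 in the 6 xenografts alone and 491 there with the block, settings chosen after seeing the data. Leaving out an array gave 16 to 591, 4 to 40, 3 to 12 and 0 to 1, in the order above. COL3A1 reversed to -0.033 with those suffixes left out, since another probe set then stood for it. Of 68 called named genes SPARC, KCNJ2, ITGB8, FAP, ITGA1, SNAI2 and S100A16 were called under every alternative that gave a value. FAP has 1 probe set, which ends in _s_at, so leaving out those suffixes gave no value for it. MGP was not called without those probe sets, nor PCDH7 and PRRX1 with the 9 as 1 group. The table holds no detection calls, so signal over background was not measured.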
